A study of Mus musculus with 12 samples.

Results

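The cerebral cortex of mice that lost Dnmt1 in cells of the oligodendrocyte lineage was compared with that of littermate controls by RNA-seq at postnatal day 16. The comparison rests on 6 of the 12 libraries of the series, chosen by their genotype labels: 3 Dnmt1 conditional knockout (CKO) mice, Olig1cre/+;Dnmt1flox/flox, and 3 controls, Olig1+/+;Dnmt1flox/flox. The other 6 libraries, 3 Olig1cre/+;Dnmt3aflox/flox mice and 3 Olig1+/+;Dnmt3aflox/flox controls, came from a separate line with the same cre allele and are used to ask whether an effect differed between the lines. All mice were on a C57BL/6 background, the controls carry the floxed alleles as well, and each library is 1 mouse. The CKO mice differ from their controls in the cre allele at Olig1 as well as in the loss of Dnmt1, and these cannot be told apart within the Dnmt1 line. Of 23354 gene symbols in the table of FPKM values (fragments per kilobase of a gene's transcript, relative to all mapped fragments), the 14075 whose mean over the 12 libraries reached 0.5 FPKM were tested.

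DNMT1 is the maintenance DNA methyltransferase: after replication it copies the methyl marks of CpG sites from the parental to the new strand, so its loss acts mainly in cells that go on to divide. Oligodendrocyte progenitors divide, leave the cell cycle and pass through a premyelinating stage before they wrap axons with myelin, and in the mouse cortex this is under way in the third postnatal week. In many tissues DNA methylation is known to keep germline genes, endogenous retroviral elements and the silent copy of X-linked genes off. Since whole cortex was measured, fewer cells of a type and less RNA per cell cannot be told apart in any of the values below.

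The genotype labels were set against the genes themselves. Dnmt1 itself was at 10.6, 10.2 and 9.78 FPKM in control cortex against 7.26, 9.11 and 9.09 FPKM in the CKO mice. The CKO values all lay below the control values, and the groups did not overlap for 20.8% of all genes tested. The difference (log2 fold change −0.27, standard error 0.098) did not pass the threshold (limma, adjusted p = 0.286). An exact permutation test with 3 mice a group cannot go below p = 0.1, the two-sided value found. The FPKM values cover the whole gene, the exons removed by cre are not resolved in them, and most cortical cells are of other lineages. Xist and 4 broadly expressed genes of the Y chromosome (Ddx3y, Eif2s3y, Kdm5d and Uty) showed that Dnmt1 control replicate 3 was female and that the other 2 controls and the 3 CKO mice were male, so results were also computed without that library. In the other line, the library labelled Dnmt3a control replicate 2 had Dnmt3a at 16.9 FPKM, against 13.6 to 15.4 FPKM in that line's CKO mice and 28.7 and 31.1 FPKM in its other controls, and the counts of differences between the lines are given with and without it.

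Fold changes below are log2 ratios of CKO over control on the log2(FPKM + 0.1) scale, tested with limma across all 14075 genes, and a gene was called at a Benjamini-Hochberg FDR of 10%. In these terms 443 genes (3.15%) were called, 324 (2.3%) lower and 119 (0.845%) higher in the CKO cortex. The decreases affected well expressed genes: their median control level was 10.2 FPKM, against 7.55 FPKM for all genes tested, and 5 of them fell by more than 2 on the log2 scale. The increases affected weakly expressed genes, with a median control level of 1.97 FPKM, and 8 of them rose by more than 2 on the log2 scale. The median change over all genes was −0.02. When each of the 6 libraries was left out in turn, 124 of the decreases and 33 of the increases were called in every fit.

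Among the 20 largest decreases, 18 belong to lists of myelin, oligodendrocyte or myelin lipid genes. Of the 14 genes listed for the myelin membrane 12 were called, all lower, and the list's median was −1.8. Among all genes tested 2.3% were called lower. Mbp, the most abundant of them, encodes the protein that compacts the cytoplasmic faces of myelin; it was at 1189, 1103 and 991 FPKM in control cortex against 313, 370 and 350 FPKM in the CKO mice. The highest CKO value of Mbp was far below the lowest control value, and the groups did not overlap for any of the 12 called genes. Over all genes tested, the groups did not overlap for 20.8%. Mobp, a small basic protein of central myelin, fell from 91.9, 87.1 and 82.6 FPKM to 16.5, 19.3 and 20.02 FPKM (log2 fold change −2.23, adjusted p = 0.000323). Opalin, a membrane glycoprotein of mature oligodendrocytes, showed the largest decrease of all called genes, from 7.28, 9.31 and 8.85 FPKM to 1.36, 1.81 and 1.26 FPKM (−2.45, adjusted p = 0.00234). Cnp and Pllp lost less, with changes of −1.38 and −0.95. The 2 members that were not called were Gpm6b (−0.09), which neurons and astrocytes also express, and Omg (−0.06), which neurons also express. All 12 calls remained in each of the 6 fits without a library, and the sum over the list was 2310 to 2670 FPKM in the controls and 905 to 1000 FPKM in the CKO mice.

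The 31 genes tested of a mature oligodendrocyte list had a median of −0.72, and 18 were called lower and none higher. The shares over all genes tested were 2.3% lower and 0.845% higher. Gap junction genes that couple oligodendrocytes to each other and to astrocytes were among them. Gjb1 fell from 2.08, 1.97 and 2.23 FPKM to 0.781, 0.743 and 0.870 FPKM (−1.29, adjusted p = 0.00238), and the related Gjc3 changed by −0.72. Aspa, the enzyme that releases acetate from N-acetylaspartate, changed by −1.68 and the sphingosine 1-phosphate receptor gene S1pr5 by −1.75. Trf, the transferrin gene, fell by 0.99, Car2, a carbonic anhydrase gene, by 0.45, and the tubulin gene Tubb4a, which neurons also express, by 0.22 on the log2 scale. Among the 18 called genes of the list the change of Tubb4a was the smallest. Cldn14, a claudin gene, and Sec14l5, a lipid transfer protein gene, are in none of the lists and fell by 1.81 and 1.61. Their levels were 1.07 to 1.23 and 0.863 to 1.22 FPKM in the controls and 0.221 to 0.294 and 0.239 to 0.337 FPKM in the CKO mice.

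**Figure D1:**
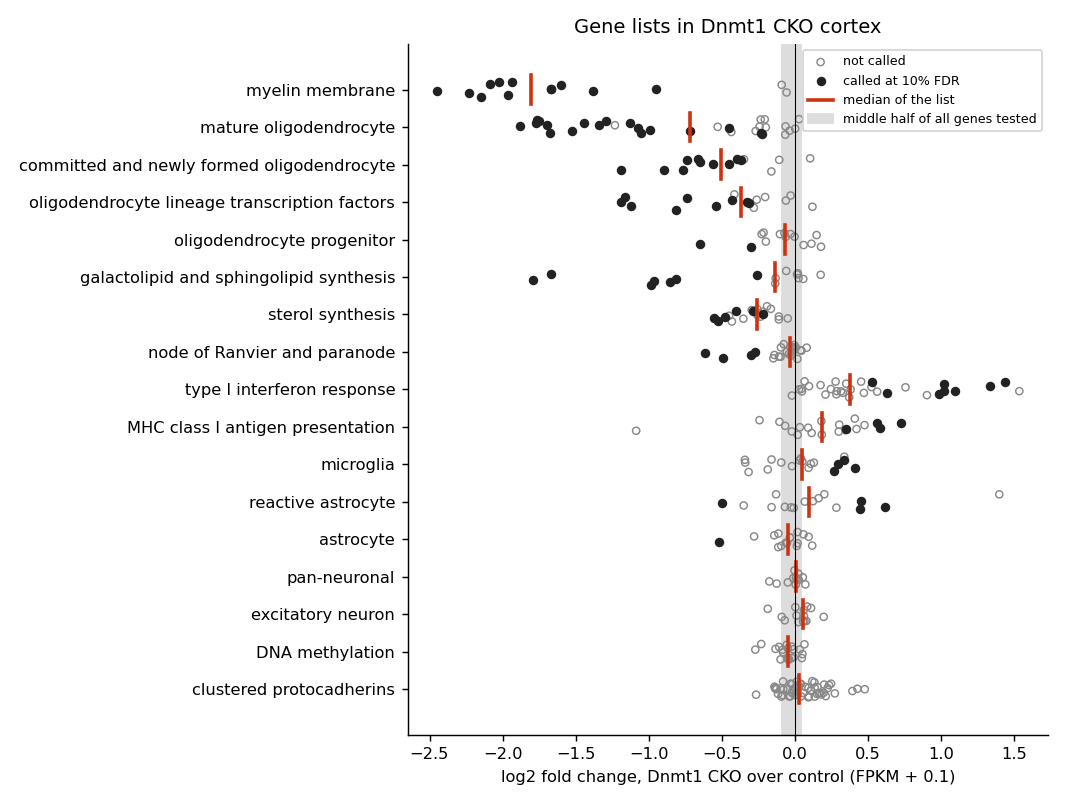
The log2 fold change of each tested member of 17 gene lists (Dnmt1 CKO over control, horizontal axis), with filled points for genes called at 10% FDR, open points for the others, a red bar for the list's median and a grey band from the lower to the upper quartile of all genes tested (−0.09 to 0.05). The myelin membrane list is farthest to the left, the progenitor list lies near the band, and the interferon list is shifted to the right.

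Along the lineage the medians of the lists were lower for later stages, and the sums over the lists did not follow the same order. The progenitor list, 14 genes, had a median of −0.07 with 2 genes called lower, Neu4 and Pdgfra. The share called lower over all genes tested was 2.3%. Pdgfra, the receptor for the main mitogen of progenitors, was at 15.1, 13.6 and 13.6 FPKM in control cortex against 11.4, 11.6 and 11.4 FPKM in the CKO mice (−0.30, adjusted p = 0.0464), and the call held in only 2 of the 6 fits without a library. Cspg4, the gene of the progenitor proteoglycan NG2, was at 3.001, 2.80 and 3.20 FPKM in control cortex against 3.02, 3.05 and 2.92 FPKM in the CKO mice, so that the groups overlapped. Its log2 fold change was 0.00 to 2 decimals (standard error 0.069). The list of committed and newly formed oligodendrocytes lay between, with 10 of 14 genes called lower and a median of −0.51. Without CKO replicate 1, CKO replicate 3 or control replicate 2 that count was 6. Bcas1, a marker of premyelinating cells, went from 36.3, 31.6 and 31.4 FPKM to 19.7, 19.9 and 18.7 FPKM (−0.76, adjusted p = 0.00513). Gpr17, a receptor gene of the same stage, changed by −0.56 and Enpp6, an early differentiation marker, by −0.73. In sums over each list, the CKO mice had 0.918 of the control level for the progenitor list, 0.698 for the committed and newly formed list, 0.872 for the mature list and 0.382 for the myelin membrane list.

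Transcription factors of the lineage fell as well: 9 of 16 were called lower and 0 higher, with a median of −0.37. Over all genes tested, 2.3% were called lower and 0.845% higher. The count was 4 without CKO replicate 1, CKO replicate 3, control replicate 1 or control replicate 2, and 6 without either of the other 2 libraries. Myrf, the factor that drives the myelin programme, was at 7.75, 6.85 and 6.34 FPKM in control cortex against 2.85, 3.34 and 3.25 FPKM in the CKO mice (−1.12, adjusted p = 0.00564). Sox10 and Nkx6-2 changed by −0.81 and −1.16. Olig1 fell to 0.437 of its control level on the FPKM scale, but it is the locus of the cre allele. Olig2, its neighbour, a factor needed to specify the lineage, fell from 10.2, 10.9 and 9.85 FPKM to 7.11, 7.98 and 6.24 FPKM (−0.54, adjusted p = 0.064) and was called in 1 of the 6 fits without a library. Of 30 genes tested within 2 Mb of Olig1 on chromosome 16, Olig1 and Olig2 were the 2 called, against 3.15% of all genes tested. The log2 fold change was negative for 23 of the 30 genes, against 58.6% of all genes tested. By limma 7 of the 30 had an unadjusted p under 0.05, against 2112 of all 14075 genes. In the Dnmt3a line 8 of the 30 had one. The median over the 30 genes was −0.06 in the Dnmt1 line and −0.02 in the Dnmt3a line, which carries the same cre allele. Ifnar1 and Ifnar2, the genes of the type I interferon receptor, lie in that window and had log2 fold changes of 0.04 and 0.15, neither of which was called.

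Genes that supply the lipids of myelin formed a graded group. Ugt8a, which makes galactosylceramide, the characteristic sphingolipid of myelin, fell from 35.2, 32.9 and 32.6 FPKM to 9.04, 10.1 and 9.72 FPKM (−1.79, adjusted p = 0.000197). Fa2h, whose product hydroxylates the fatty acids of that lipid, changed by −1.67, and the elongase genes Elovl1 and Elovl7 by −0.98 and −0.96. In the galactolipid and sphingolipid list 7 of 15 genes were called lower, against 2.3% of all genes tested, with a median of −0.13 for the list. Sterol synthesis had smaller changes: all 20 genes had a negative log2 fold change, with a median of −0.25, and 6 were called. Of all genes tested, 58.6% had a negative log2 fold change. Idi1 and Cyp51, enzymes of the pathway before and after the closure of the sterol rings, changed by −0.55 and −0.53. The count of called sterol genes ran from 2, without CKO replicate 1, to 15 over the alternatives, and was 3 without CKO replicate 3, control replicate 1 or control replicate 2. Scd1, a desaturase that makes monounsaturated fatty acids, changed by −0.62 in a list of fatty acid genes of which 4 of 15 were called lower.

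Receptors and axonal partners divided by gene. In the list of growth factor receptors and ligands of the lineage, 4 of 19 genes were called lower: Lpar1 (−1.27), Erbb3 (−1.07), Ddr1 (−0.58) and Fgfr2 (−0.39). For this and the lists that follow, the share called lower over all genes tested was 2.3%. None of the 15 listed inhibitors of oligodendrocyte differentiation was called by limma, and 2 of them had an unadjusted p under 0.05. At the node and paranode, where myelin loops attach to the axon, 4 of 24 genes were called (2 without CKO replicate 1), and the list's median was −0.03. Nfasc, which encodes a glial as well as neuronal forms of neurofascin, was at 47.3, 45.9 and 47.1 FPKM in control cortex against 30.7, 30.7 and 30.3 FPKM in the CKO mice (−0.61, adjusted p = 0.000334). Plxnb3, Sema6a and Sema4d, guidance genes expressed by oligodendrocytes, changed by −0.78, −0.72 and −0.47, the 3 calls among 29 semaphorins and plexins.

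Outside the lists, 234 called genes were lower. The 20 called genes with the highest mean level that are in neither a list nor the largest changes were lower in 18 cases and higher in 2. Qk, an RNA-binding protein that governs splicing and stability of myelin transcripts, was at 63.2, 60.6 and 58.3 FPKM in control cortex against 44.7, 46.9 and 47.4 FPKM in the CKO mice (−0.39, adjusted p = 0.00998). Plekhb1 fell by 0.61, and the others by 0.13 to 0.28 on the log2 scale.

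Promoter windows from RefSeq (GRCm38.p6, from 250 bases before to 50 after an annotated start) were available for 10 of the 12 called myelin membrane genes. SOX10 binds sequences with the core ACAAAG. Either this or CTTTGT, its reverse complement, was present in at least 1 window of 5 of the 10 (Cnp, Mag, Mobp, Opalin and Tspan2). Of all 32851 windows, 18.7% had a match. The count is per gene and this share is per window, and some genes have several windows (Mag has 3). They are not like measures and were not compared by a test. Mobp and Opalin, which had the largest decreases of all called genes, are shown because Mobp holds 6 matches and Opalin 1, with the matches in capitals (Mobp chr9:120149492-120149647, plus strand; Opalin chr19:41077227-41077272, minus strand).
Mobp: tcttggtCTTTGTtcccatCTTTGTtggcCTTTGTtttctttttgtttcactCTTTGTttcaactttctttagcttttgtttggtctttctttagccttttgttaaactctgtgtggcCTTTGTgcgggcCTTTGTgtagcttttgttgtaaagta
Opalin: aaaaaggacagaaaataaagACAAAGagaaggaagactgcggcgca
These letters are matches in a window and were not tested for binding.

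A group of interferon-stimulated genes rose in the CKO cortex. Of 32 genes tested of the type I interferon response, which cells mount against viral nucleic acids, 31 had a positive log2 fold change. The log2 fold change was negative for 58.6% of all genes tested. In the list 8 genes were called higher, where 0.845% of all genes tested were, and its median was 0.38. Isg15, a ubiquitin-like modifier, was at 1.19, 1.07 and 0.979 FPKM in control cortex against 2.56, 3.26 and 3.56 FPKM in the CKO mice (1.44, adjusted p = 0.00788). Rtp4 rose from 0.627, 0.645 and 0.658 FPKM to 1.33, 1.47 and 1.43 FPKM (1.02, adjusted p = 0.00234), and Bst2, which tethers budding virus particles, from 1.89, 2.10 and 2.35 FPKM to 4.48, 3.91 and 4.44 FPKM (0.99, adjusted p = 0.00952). The CKO values of these genes lay above every control value. An absence of overlap, in either direction, was seen for 20.8% of all genes tested. Oasl2, Irf7, Lgals3bp, Ifitm3 and Parp9 were called too, with changes from 0.53 to 1.34. Those that were not called included Ifit3 (0.91, adjusted p = 0.142) and Ifi27l2a (1.54, adjusted p = 0.216). Of the 8 calls 4 remained in every fit without a library: those of Isg15, Rtp4, Bst2 and Lgals3bp. The count was 4 without CKO replicate 2 and 5 without CKO replicate 1 or control replicate 3. Irf7 and Oasl2 passed the filter on level only through the CKO mice, since their means over the 9 other libraries were 0.469 and 0.433 FPKM. The sum over the list was 57.1 to 61.8 FPKM in the Dnmt1 controls and 82.6 to 89.0 FPKM in the CKO mice, and 1 control of the Dnmt3a line reached 69.8 FPKM.

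Cytosolic and endosomal sensors of nucleic acids had fewer calls. Ddx58 (RIG-I), Ifih1 (MDA5) and Tlr7, all sensors of RNA, were called higher among 15 sensor and signalling genes, with log2 fold changes of 0.49, 0.45 and 0.50, whereas the list's median was 0.04. Ddx58 was at 0.772, 0.781 and 0.756 FPKM in control cortex against 1.15, 1.16 and 1.05 FPKM in the CKO mice, and it alone of the 3 was called in every fit without a library, and it was the only call without CKO replicate 1, CKO replicate 3 or control replicate 2. In the list of MHC class I antigen presentation 4 of 21 genes were called higher, with 1 call without control replicate 2 and 2 without CKO replicate 2 or 3. The list's median was 0.19, with 16 genes higher and 5 lower in the CKO mice. Its log2 fold changes ran from −1.09, which was not called, to 0.73. B2m, the light chain of MHC class I, was at 47.2, 48.6 and 45.9 FPKM in control cortex against 59.9, 59.8 and 60.7 FPKM in the CKO mice (0.35, adjusted p = 0.00489). The heavy chain genes H2-K1 and H2-D1 rose by 0.73 and 0.58 and the peptide transporter gene Tap1 by 0.57 on the log2 scale. H2-K1 and H2-D1 share 22.8% and 26.7% of their 31-base words with other annotated genes, and reads of those words cannot be told apart between relatives. The 3 called genes of the list other than B2m are on chromosome 17, which held 16 of the 119 called increases. Of the 671 genes tested on that chromosome 2.38% were called higher, against 0.845% of all genes tested.

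The element to which interferon-induced factors bind (ISRE) was searched as GAAA, any 2 bases and GAAA, or on the other strand as TTTC, any 2 bases and TTTC, in the same promoter windows. It was found in 6 of the 12 called genes of the interferon, sensor and MHC class I lists that have a window (B2m, Bst2, Ddx58, Ifih1, Ifitm3 and Isg15). Of all windows, 3.44% had a match. That share is per window and the count is per gene, and they were not compared by a test. The matches upstream of the start in Isg15 (chr4:156200850-156200921, minus strand), Bst2 (chr8:71537562-71537627, minus strand) and B2m (chr2:122147523-122147582, plus strand) are shown as examples of the genes above, in capitals. Overlapping matches run together, with 3 in Isg15, 2 in Bst2 and 1 in B2m.
Isg15: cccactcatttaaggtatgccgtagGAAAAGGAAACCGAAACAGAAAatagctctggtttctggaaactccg
Bst2: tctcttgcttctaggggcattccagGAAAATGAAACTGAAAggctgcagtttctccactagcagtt
B2m: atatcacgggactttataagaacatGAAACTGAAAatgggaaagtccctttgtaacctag

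Glial genes other than those of oligodendrocytes changed in a few members. The 3 genes of complement C1q, which microglia make, rose together: C1qa, for example, was at 22.9, 21.3 and 22.9 FPKM in control cortex against 28.6, 27.6 and 28.6 FPKM in the CKO mice (0.34, adjusted p = 0.0134). C1qb and C1qc rose by 0.42 and 0.27, and Trem2, a microglial receptor, by 0.30. These were the 4 calls among 18 microglial genes, whose median was 0.05, and 2 calls were left without control replicate 2. Among all genes tested 0.845% were called higher. P2ry12, Cx3cr1 and Tmem119, markers of resting microglia, had log2 fold changes of −0.16, −0.02 and 0.04, and none of them was called. The sum over the microglial list was 221 to 232 FPKM in the controls and 236 to 254 FPKM in the CKO mice, and its part in the interferon result was not tested. In the Dnmt3a line the list's median was 0.11. Its sum there was 200 to 234 FPKM in the controls and 210 to 261 FPKM in the CKO mice. The difference between the lines was called for none of the 18 microglial genes. C4b, another complement gene, rose from 2.14, 1.73 and 2.10 FPKM to 4.42, 4.602 and 4.31 FPKM (1.13, adjusted p = 0.00513).

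Of 16 markers of reactive astrocytes 3 were called higher and 1 lower, against 0.845% and 2.3% of all genes tested. Without CKO replicate 3 only 1 was called higher, and the decrease was called in none of the fits without a library. Gfap, the intermediate filament gene that astrocytes raise after injury, was at 48.5, 47.4 and 49.9 FPKM in control cortex against 64.6, 70.1 and 64.9 FPKM in the CKO mice (0.45, adjusted p = 0.00646). Serpina3n, a protease inhibitor gene, rose by 0.62 and Aspg by 0.45, and Fbln5 changed by −0.50. General astrocyte markers had 1 call among 16 genes and a median of −0.04. The call was a decrease of Kcnj10, a potassium channel gene of astrocytes and oligodendrocytes (−0.52, adjusted p = 0.00885). No neuronal gene was called by limma among 12 pan-neuronal and 14 excitatory markers, of which 1 in each list had an unadjusted p under 0.05, and Pvalb (−0.27, adjusted p = 0.0985) was the only call among 14 interneuron markers. None of 16 immediate early genes was called, nor any of 15 cell cycle genes, where 0 and 1 had an unadjusted p under 0.05. The blood list had a median of −0.74 over 4 genes with none called and 3 with an unadjusted p under 0.05; its sum was 16.7 to 28.1 FPKM in the controls and 9.27 to 15.3 FPKM in the CKO mice. In the endothelial and mural list 3 of 21 genes were called lower (Acta2, Rgs5 and Itm2a) and 1 higher (Slc2a1), with 0 lower without CKO replicate 1 and 1 without control replicate 2. The choroid plexus list, whose sum was 195 to 370 FPKM in the controls and 140 to 323 FPKM in the CKO mice, had no call among 7 genes and 1 with an unadjusted p under 0.05, and the meninges and collagen list had 1 call among 13 (Col6a1, 0.31). Their part in the results above was not tested.

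**Figure D2:**
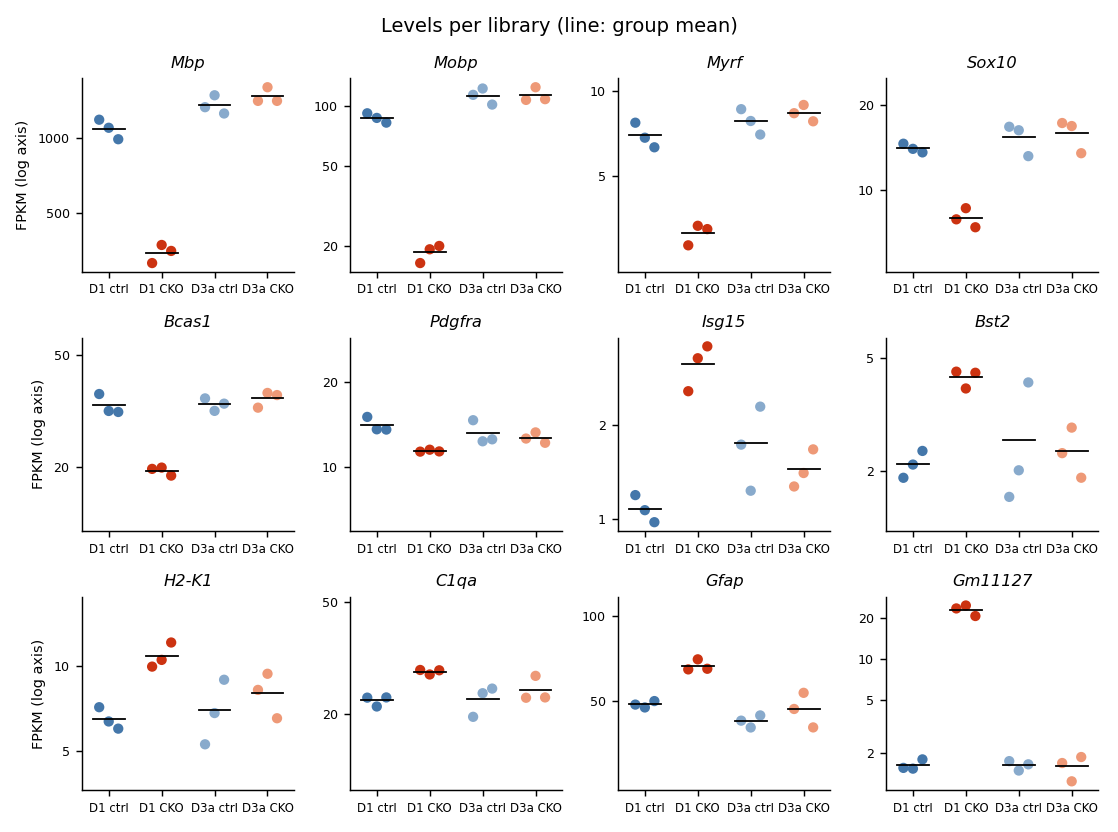
FPKM (log axes that differ in range) of 12 genes in each of the 12 libraries, with the groups on the horizontal axis (D1, Dnmt1 line; D3a, Dnmt3a line) and a line at the group mean. The 3 Dnmt1 CKO libraries lie below all 3 Dnmt1 controls for Mbp, Mobp, Myrf, Sox10, Bcas1 and Pdgfra and above them for Isg15, Bst2, H2-K1, C1qa, Gfap and Gm11127.

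The strongest increases were in predicted genes and cDNA clones of mostly unknown function. Gm11127, a predicted gene on chromosome 17, was at 1.56, 1.54 and 1.81 FPKM in control cortex against 23.7, 24.95 and 20.9 FPKM in the CKO mice (3.74, adjusted p = 0.000197). 4933409K07Rik reached the highest level of these transcripts, from a control mean of 17.3 FPKM (SD 2.09, n = 3) to 148, 160 and 138 FPKM (3.10, adjusted p = 0.000212). Gm4262, Psg23, Gm19757, A430078G23Rik and Gm10845 rose by 3.47, 3.26, 2.88, 2.60 and 1.98 on the same scale. Their replicates were close: Gm19757 was at 44.7, 46.4 and 44.2 FPKM in the CKO mice and Gm10845 at 77.6, 79.9 and 77.6 FPKM. In the Dnmt3a line their log2 fold changes were −0.10 to −0.04. Psg23 belongs to the pregnancy-specific glycoproteins, a family expressed in the placenta, and was the 1 call among 6 placental genes tested.

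Many of the largest increases share sequence with other genes. Of the 19 among the 20 largest increases that have an annotated transcript, 11 (57.9%) share more than 10% of their 31-base words with another annotated gene, against 23.3% of all called increases, 5.96% of the called decreases, 0 of the 20 largest decreases and 11.9% of all genes tested. Gm11127 shares 73.1% of its words with 87 other genes, among them Gm7030, also on chromosome 17, Trpc6 on chromosome 9 and Zfp706 on chromosome 15. Zfp706, a small zinc finger gene, was itself higher, from 39.0, 37.98 and 35.9 FPKM to 47.5, 50.1 and 47.4 FPKM (0.36, adjusted p = 0.0146), and Gm7030 was called higher too (0.92). Gm10845 shares 34.1% of its words with 76 genes and Psg23 52.9% with 67, the most with Psg21 of the same family. The shares were lower for Gm4262 (13.2%), Gm19757 (8.28%) and A430078G23Rik (3.91%). 4933409K07Rik has no annotated transcript, so its share was not measured. From FPKM values, reads of such words cannot be assigned to 1 locus, and the levels of genes with a large share are uncertain for that reason. Repeat annotation was not used here.

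Germline genes formed a second group of increases, most of them below the filter on level. Of 58 listed germline genes 14 were tested, and Xlr4a, a lymphocyte-regulated X-linked gene, was the 1 call (2.68, adjusted p = 0.0623). It passed the filter only through the CKO mice, since its mean over the 9 other libraries was 0.389 FPKM. It was listed at 0, 0.124 and 0.248 FPKM in control cortex against 0.973, 1.02 and 1.61 FPKM in the CKO mice, shares 84.8% of its words with its copies, and was called in 2 of the 6 fits without a library. With no filter on level, 56 of the listed genes could be tested and 7 were called higher and 0 lower by limma, where 0.824% of the 20509 genes tested were called higher. Of the 7, Dpep3 and Mageb4 were listed at 0 in all 9 other libraries. They entered that fit only through the CKO mice and could not be called lower. The list was chosen with earlier results of these data known, so this count is no independent test. Of the 56 genes, 46 had a positive and 7 a negative log2 fold change, and the median was 0.23. Listed genes at 0 in every control, such as Dpep3, could not come out negative. The share of positive signs over all 20509 genes was not computed, so the signs are no test. Tex101, a membrane protein gene of male germ cells, was at 0, 0.0284 and 0 FPKM in control cortex against 0.744, 0.794 and 0.615 FPKM in the CKO mice (adjusted p = 0.00365 in that fit). Mov10l1, an RNA helicase needed for piRNA production in the testis, was at 0.0130, 0.0130 and 0.00596 FPKM in control cortex against 0.407, 0.382 and 0.342 FPKM in the CKO mice (adjusted p = 0.00116). Dpep3, a testis gene, was listed at 0 in all 6 libraries of the Dnmt3a line and in the 3 Dnmt1 controls, against 0.125, 0.217 and 0.187 FPKM in the CKO mice (adjusted p = 0.0175). The other calls were Fkbp6, Tuba3a, Xlr4c and Mageb4. Rhox5, a homeobox gene of the testis and placenta, was at 0.0397, 0 and 0.109 FPKM in control cortex against 0.372, 1.26 and 0.793 FPKM in the CKO mice, with an adjusted p of 0.116.

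Most of the listed germline genes were not called. Dazl, a regulator of germ cell translation, was at 1.16, 1.21 and 1.23 FPKM in control cortex against 1.56, 1.31 and 1.43 FPKM in the CKO mice, without a call (adjusted p = 0.327 with no filter). Sycp1, of the synaptonemal complex, was listed at 0 in all 6 libraries, and Ddx4 and Sycp3 overlapped between the groups. Brdt, a chromatin reader of spermatocytes, was at 2.68, 2.70 and 2.47 FPKM in control cortex against 2.70, 2.76 and 2.93 FPKM in the CKO mice (adjusted p = 0.564 with no filter). Over all 9301 genes under the filter, 66 were listed at 0 in every Dnmt1 control and above 0 in every CKO library, and 7 were the other way round; in the Dnmt3a line these counts were 29 and 17. Relative to the deepest library, depth was estimated at 0.866, 0.866 and 0.944 in the Dnmt1 controls and 0.924, 0.928 and 1.0 in the CKO libraries. In the Dnmt3a line it was 0.857, 0.869 and 0.937 in the controls and 0.928, 0.896 and 0.887 in the CKO libraries. The part of depth in these counts was not tested. A 0 can be a failed estimate in this table, and several of the nonzero values are at the level of a few fragments. Some are 0 for practical purposes, such as those of Pira4 in the CKO mice (4.67e-15, 4.75e-24 and 6.18e-14 FPKM). Among genes under the filter, 29 had at least 0.2 FPKM in every CKO library, a CKO mean of at least 4 times the control mean and no overlap between the groups. These thresholds were set after the values were seen. The X chromosome held 9 of the 29 genes (31%), against 5.62% of all genes under the filter. Related X-linked genes such as Ssxb5, Ssxb9 and Ssxb10 were counted separately. The same rule was not applied to decreases or to the Dnmt3a line, and the share on the X chromosome was not tested. Nxf3, an X-linked relative of an mRNA export factor that is expressed in testis, was at 0.0359, 0.0179 and 0.0576 FPKM in control cortex against 1.06, 1.14 and 0.939 FPKM in the CKO mice, and Ssxb5, Ssxb9 and Ssxb10, X-linked relatives of the human SSX cancer-testis antigens, were in the group too. Matn1, a cartilage matrix gene, was at 1.11 to 1.12 FPKM in the CKO mice and at 0.137 to 0.252 FPKM in the controls.

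**Figure D3:**
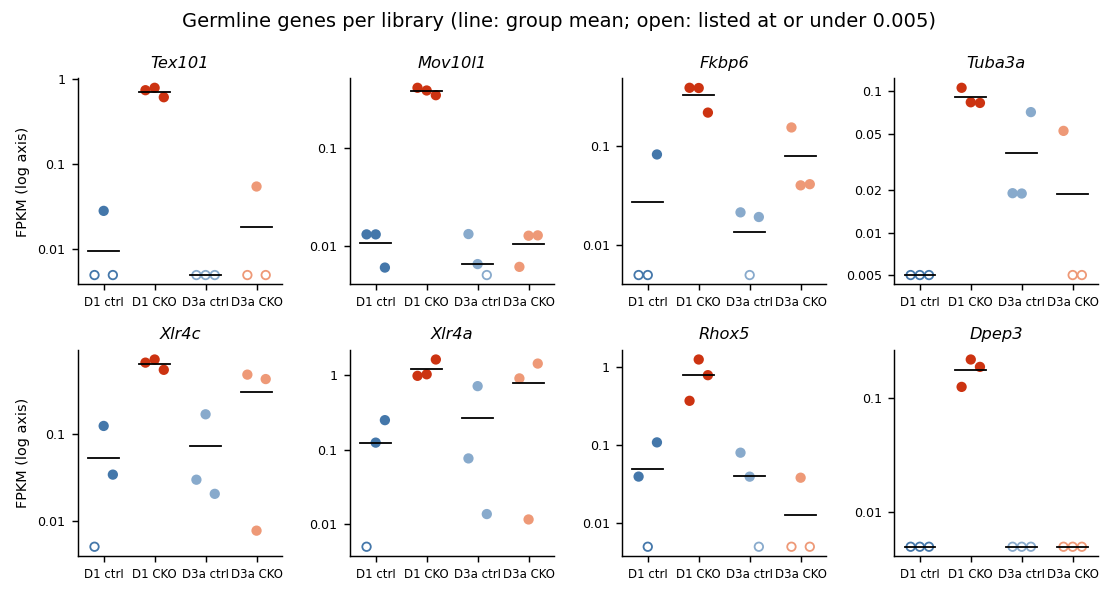
FPKM (log axes) of 8 germline genes in each of the 12 libraries, with the groups on the horizontal axis and a line at the group mean; open points are values at or under 0.005, drawn at 0.005. The 3 Dnmt1 CKO libraries are above the 3 Dnmt1 controls in every panel, and Xlr4a and Xlr4c are also high in some libraries of the Dnmt3a line.

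Xist differed between male mice. Xist is the noncoding RNA that coats and silences the inactive X chromosome and is normally made only from the inactive X of females. It was at 49.4 FPKM in the female control (replicate 3) and at 0.0453 and 0.0306 FPKM in the male controls, against 1.69, 1.80 and 1.85 FPKM in the CKO mice. The CKO mice are male by their Y chromosome genes: Ddx3y was at 11.1, 10.8 and 10.2 FPKM in them, at 12.8 and 12.1 FPKM in the male controls and at 0.0207 FPKM in the female control. Over the 6 libraries, the female control included, Xist was not called (adjusted p = 0.908). Without that library it was called, with a log2 fold change and standard error of 3.77 and 0.0776 (adjusted p = 0.000412), in a fit that called 0.625% of genes higher; the CKO mean was 46.9 times that of the male controls. With 3 mice against 2 an exact permutation test cannot reach 0.05. In the Dnmt3a line the 4 male libraries had 0.0397 to 0.0853 FPKM and the female ones 46.2 and 49.4 FPKM. The Dnmt1 CKO values lay between those of males and females in all 3 mice.

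Uba1y, a Y-linked ubiquitin-activating enzyme gene with a role in spermatogenesis, rose in the same mice. It was at 0.239, 0.140 and 0.158 FPKM in the controls, the female included, against 1.46, 1.56 and 1.37 FPKM in the CKO mice (2.50, adjusted p = 0.00155). Its mean over the 12 libraries, 0.503 FPKM, passed the filter only through the CKO mice, and its mean over the 9 others was 0.182 FPKM. This was so for 7 of the 119 called increases. The female control, without a Y chromosome, had a Uba1y value within the range of the male controls, and 60.3% of the gene's words are shared with other genes, the most with Gm2098. Against the male controls, Ddx3y, Eif2s3y, Kdm5d and Uty had log2 fold changes of −0.22, −0.27, −0.03 and −0.18, none of them called. Of 490 genes tested on the X chromosome 12 were called lower and 2 higher, against 307 and 113 of 13438 autosomal genes. Their median log2 fold change was −0.054 without the female control, against −0.037 for the autosomes.

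**Figure D4:**
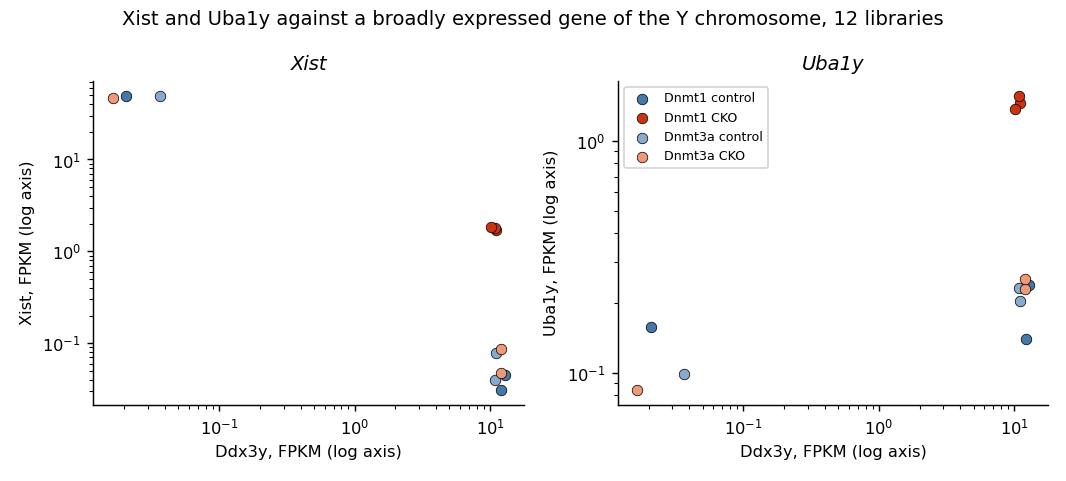
Levels of Xist (left) and Uba1y (right) against Ddx3y, a gene of the Y chromosome, in FPKM on log axes for the 12 libraries, coloured by group. The 3 Dnmt1 CKO libraries have the Ddx3y level of males (10.2 to 11.1 FPKM) and an Xist level of 1.69 to 1.85 FPKM, and they have the highest Uba1y levels.

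The sequences upstream of some of the genes named above are printed to show where their CpG sites lie. For each gene the 150 bases before the annotated start are given with every CG in capitals: Xist (chrX:103483234-103483383, minus strand) with 6 CG, Uba1y (chrY:818499-818648, plus strand) with 8, Tex101 (chr7:24672051-24672200, minus strand) with 6 and Mov10l1 (chr15:88982844-88982993, plus strand) with 11. In the same stretch Rhox5 had 4 CG, Xlr4a 6 and Dpep3 10. Methylation was not measured in these libraries. The CG counts were not compared with those of other genes, and a link to the increases was not tested.
Xist: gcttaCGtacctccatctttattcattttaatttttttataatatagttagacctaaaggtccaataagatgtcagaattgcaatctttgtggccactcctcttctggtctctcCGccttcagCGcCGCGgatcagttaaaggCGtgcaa
Uba1y: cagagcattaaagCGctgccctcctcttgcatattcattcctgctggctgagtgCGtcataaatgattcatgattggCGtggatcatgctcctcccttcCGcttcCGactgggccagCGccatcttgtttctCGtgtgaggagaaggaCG
Tex101: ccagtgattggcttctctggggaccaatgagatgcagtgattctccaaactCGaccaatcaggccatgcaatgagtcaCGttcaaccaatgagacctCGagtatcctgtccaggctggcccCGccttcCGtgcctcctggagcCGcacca
Mov10l1: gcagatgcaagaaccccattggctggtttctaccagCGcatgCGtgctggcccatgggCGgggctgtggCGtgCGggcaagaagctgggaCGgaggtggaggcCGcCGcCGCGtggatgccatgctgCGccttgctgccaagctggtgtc

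Other gene classes that DNA methylation is known to regulate were read against the 3.15% of all genes called. Of 40 imprinted genes tested, which are expressed from 1 parental copy, Sgce was the 1 call, lower by 0.23 on the log2 scale (adjusted p = 0.0766), and the call was lost in each fit without a library. None of 56 clustered protocadherins was called by limma (7 with an unadjusted p under 0.05), and their median was 0.03. No gene of the methylation machinery was called among 20, of which 1 had an unadjusted p under 0.05. Dnmt3a had a log2 fold change of −0.02, Tet1, Tet2 and Tet3, which oxidise methylcytosine, −0.04, 0.03 and −0.08, and Uhrf1, the partner that brings DNMT1 to replicated DNA, 0.05. Dnmt3b was under the filter, at 0.160 to 0.243 FPKM in the controls and 0.194 to 0.255 FPKM in the CKO mice. Among 30 chromatin regulators Suv39h2, a histone H3 lysine methyltransferase gene, was the 1 call, from 1.26, 1.19 and 1.18 FPKM to 2.87, 2.21 and 2.09 FPKM (0.91, adjusted p = 0.028). Fas, the death receptor gene, was the 1 call among 22 p53 targets and rose from 0.364, 0.421 and 0.503 FPKM to 1.10, 1.01 and 0.959 FPKM (1.09, adjusted p = 0.00959). Among 27 chaperones of the endoplasmic reticulum and genes of the unfolded protein response, 4 were called lower (Pdia6, Calr, Manf and Pdia3), by 0.19 to 0.30, in a list whose median was −0.09. None of these calls held in every fit without a library, and the list had 0 calls in each of those fits except that without control replicate 1.

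Most of the decreases differed from what the same cre allele did with floxed Dnmt3a. The difference of the effects was called for 299 genes (2.12%), and for 202 of the 324 decreases and 32 of the 119 increases. Without the library labelled Dnmt3a control replicate 2 it was called for 236 genes, 199 of them among the 443. All 12 called myelin membrane genes were among those called with all libraries, while the list's median in the Dnmt3a line was 0.04. Olig1 had log2 fold changes of −1.19 in the Dnmt1 line and −0.49 in the Dnmt3a line, the latter without a call. Among the 8 called interferon genes the difference was called for 4. It was called for no called gene of the sensor, MHC class I, microglia, activated microglia, reactive astrocyte, p53 or germline lists. The increases of those lists were thus not shown to differ between the lines. Some increases had similar fold changes in the other line. Gpnmb, a glycoprotein gene of phagocytes, had log2 fold changes of 1.24 in the Dnmt1 line and 1.14 in the Dnmt3a line, and Apoc1, an apolipoprotein gene, of 1.77 and 1.39. Neither was called in the Dnmt3a line (adjusted p = 0.656 for each), and for neither was the difference between the lines called. Gpnmb was at 0.320, 0.354 and 0.325 FPKM in the Dnmt1 controls against 1.01, 0.895 and 0.865 FPKM in the CKO mice. In the Dnmt1 line the CKO and control values of both genes did not overlap, which was so for 20.8% of all genes tested.

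**Figure D5:**
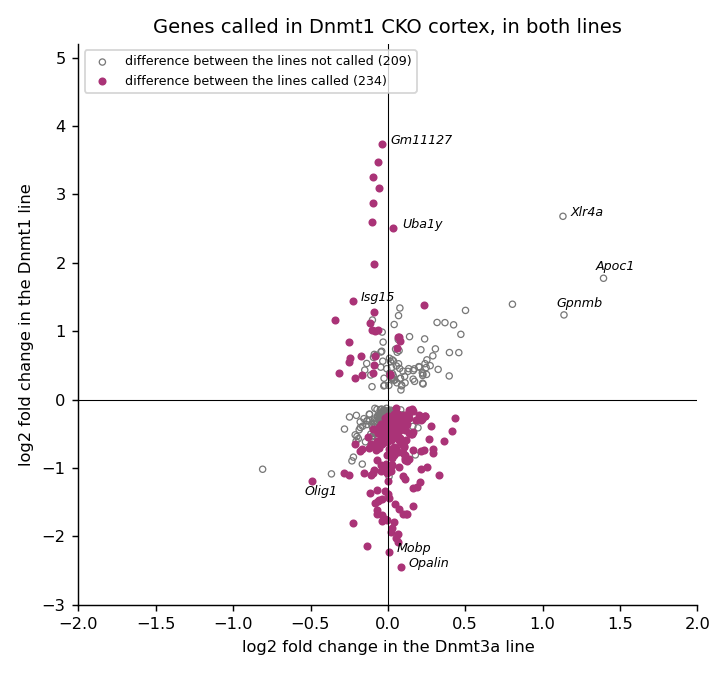
The log2 fold change in the Dnmt1 line (vertical axis) against that in the Dnmt3a line (horizontal axis) for the 443 genes called in the Dnmt1 line; filled points are the 234 genes for which the difference between the lines was called. Most points spread along the vertical axis, with Dnmt3a-line values from −0.81 to 1.39, and Gpnmb, Apoc1 and Xlr4a lie to the right.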

How the data were processed

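Cortical total RNA (polyA libraries, HiSeq 2500) was aligned by the authors to mm10 with TopHat, and the deposited values are FPKM per gene from Cufflinks, 1 column per mouse. The processing notes name Cufflinks and mm10, and versions are not given in the sources used here. The deposited table held 23850 rows, of which 302 exact duplicates were dropped. Rows whose mean over the 12 libraries reached 0.5 FPKM were kept. FPKM values are not counts. From their smallest steps the deepest library was estimated at 39.9 M fragments and the shallowest at 34.2 M, where 0.5 FPKM on a 2 kb transcript is about 34.2 fragments. This estimate rests on 273 genes (quartiles 35.5 and 42.3 M for the deepest library).

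log2(FPKM + 0.1) was fitted in R 4.3.3 by limma 3.58.1 (lmFit, then eBayes with its trend setting) for the 3 Dnmt1 CKO and 3 control mice. The difference between the lines was an interaction term over all 12 libraries. p-values were adjusted by Benjamini-Hochberg over all rows tested, and a symbol was counted where any of its rows passed 10% FDR. The labels call the samples biological replicates, so p-values measure the spread between mice. The scale understates fold changes of low genes. Alternatives were other pseudocounts, filters, scalings, eBayes settings, a replicate block, a covariate for log2 Xist, 1 model of all libraries, sums per symbol, 5% FDR and leaving out each library.

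Named genes were Dnmt1, Dnmt3a, Dnmt3b and Olig1, the 20 largest called decreases and the 20 largest called increases without overlap between groups, members of the gene lists, genes within 2 Mb of Olig1 and the 20 called genes of highest level outside these. Xist, C4b, genes under the filter, Gm7030 and Trpc6 were named after their values were seen. The comparison, the lists and the members were chosen with earlier results of these data known. Shared sequence was counted as the percent of a gene's 31-base words found in another gene of the GENCODE annotation of GRCm38. A planned comparison of promoter composition between called and other genes is void, because windows matched 10975 of 14075 tested genes (78.0%), under the 80% set for it. Some genes are not reported here.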

Additional observations from a re-analysis of the deposited data

Results flagged for a closer look

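The effect of the CKO genotype differed between the Dnmt1 and Dnmt3a lines for 299 genes (limma interaction, 10% FDR). In what follows a value is the log2 fold change in the Dnmt1 line minus that in the Dnmt3a line, and each of these differences passed that test. Among myelin membrane genes it was −2.53 for Opalin, −2.24 for Mobp, −2.15 for Mal, −2.08 for Mog, −2.02 for Mag, −2.01 for Ermn, −1.79 for Mbp, −1.76 for Cldn11 and −1.67 for Tspan2. Among other genes of mature oligodendrocytes and their lipids it was −1.83 for Ugt8a, −1.78 for Fa2h, −1.76 for Nipal4, −1.74 for Plekhh1, −1.73 for S1pr5, −1.66 for Adamts4 and −1.60 for Aspa. Cldn14 and Sec14l5, which are in no list, differed by −1.58 and −1.54, and Olig1, the site of the cre allele in both lines, by −0.70.

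Among the increases the difference was 3.78 for Gm11127, 3.53 for Gm4262, 3.35 for Psg23, 3.16 for 4933409K07Rik, 2.97 for Gm19757, 2.70 for A430078G23Rik, 2.47 for Uba1y and 2.06 for Gm10845. It was 1.66 for Isg15, 1.5 for the lens crystallin gene Cryga, 1.37 for 4921508A21Rik and 1.16 for Dmp1, a gene of bone matrix.

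Outside the genes tested, 66 genes under the filter on level were listed at 0 in every Dnmt1 control and above 0 in every Dnmt1 CKO library. The reverse held for 7 genes, and in the Dnmt3a line these counts were 29 and 17. Some of the values above 0 are 0 for practical purposes. Estimated depth differed between the libraries, and its part in these counts was not tested.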

How the results depend on the processing

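The 443 calls (324 lower, 119 higher) became 161 (123 and 38) with a replicate block and 262 (199 and 63) at 5% FDR. Leaving out 1 library at a time gave 198 to 340 calls, 145 to 252 lower and 53 to 88 higher, with fewer samples in each fit. Without CKO replicate 1, 2 or 3 the calls were 198, 265 and 215, and without control replicate 2 they were 205. Under every alternative run, more genes were called lower than higher, and the higher share was 22.6% to 35.4%, against 26.9%; it was highest with no filter. Same-numbered mice did not deviate together (correlations −0.0609, 0.0352 and −0.0251), so the numbers do not pair them. The block left the count of differences between the lines at 299, and leaving out 1 library gave 205 to 326. Dnmt1 (−0.27) passed the threshold only in 1 model of all 12 libraries (adjusted p = 0.0967), and its change was −0.32 to −0.16 when libraries were left out. Olig1 remained called throughout, at −1.26 to −1.12 when libraries were left out. Called myelin membrane genes numbered 12 under every alternative, interferon genes 4 to 11, MHC class I genes 1 to 6, sensors 0 to 3 and germline genes 0 to 7.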
